A study of Mus musculus with 3 samples.

Results

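The chemoattractant receptors of mouse bone marrow-derived dendritic cells (BMDCs) described here are C3ar1, C5ar1, Fpr1, Fpr2, Ptafr and Ltb4r1, a list of 6 genes chosen by name. Their members were the probe sets that GEO's platform annotation gives to each gene alone, 9 of the 45037 probe sets that were not controls. C3ar1 had 3, C5ar1 and Ptafr had 2 each and Fpr2 and Ltb4r1 had 1 each, so 5 of the 6 genes are described with values. Fpr1 had no probe set listed for it alone and was not analysed here.

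These receptors are G protein-coupled receptors that guide phagocytes and dendritic cells towards sites of infection and injury. C3ar1 and C5ar1 bind C3a and C5a, the small fragments that complement activation cuts from C3 and C5. Formyl peptide receptors bind N-formylated peptides shed by bacteria and by damaged mitochondria. Fpr2 also binds serum amyloid A and annexin A1. Ptafr binds platelet-activating factor (PAF) and Ltb4r1 is the high-affinity receptor of leukotriene B4, both lipid mediators made by activated leukocytes. Such receptors act largely through Gi proteins, which inhibit adenylate cyclase and so lower cyclic AMP.

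The cells were grown from bone marrow for 10 days with 10 ng/ml GM-CSF, and RNA from each condition was hybridised to 1 Affymetrix Mouse 430 2.0 array. The conditions were 10 ng/ml lipopolysaccharide (LPS) plus 100 µM 8-Br-cAMP for 3 h, the same LPS alone for 3 h, and no stimulation, with no matched incubation time given for the last. LPS is the bacterial ligand of Tlr4, and 8-Br-cAMP is a cell-permeable analogue of cyclic AMP. Genotype, strain, sex, age and the number of animals are not given by the labels, and no culture had the analogue without LPS. With 1 array per condition there were no replicates, so no difference below has a test, a p-value or a standard error.

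Values are MAS5 signals after scaling the arrays to a common trimmed mean, and the LPS+8-Br-cAMP array was the dimmest before that scaling, with a median of 19.8 against 33.4 on the LPS array and 42.6 on the unstimulated array. Signals under a floor of 32.5 were set to it, and a gene above the floor on either array of a comparison counted as measured. Beside each log2 difference stands the error of 1 probe set, the scatter between the log2 differences of a gene's 2 brightest probe sets. Over 4029 genes it came to 0.45 when LPS was set against unstimulated cells. It was 0.48 when LPS+8-Br-cAMP was set against LPS (3799 genes) and 0.56 when it was set against unstimulated cells (3825 genes). It contains no spread between cultures.

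The LPS+8-Br-cAMP culture stood apart from the other cultures in transcripts that mark sex. Xist had a scaled signal of 1716 with LPS+8-Br-cAMP, against 8.08 with LPS and 32.3 unstimulated, both under the floor. The Y-linked gene Eif2s3y had 1.24 with LPS+8-Br-cAMP, under the floor, against 272 with LPS and 352 unstimulated. Every comparison with the LPS+8-Br-cAMP array below therefore also sets apart cultures that differ in these transcripts, and with 1 array per condition it cannot be given without that array.

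All 12 dendritic cell markers that were looked up were above the floor on at least 1 array. The MHC class II genes Cd74 and H2-Aa had signals of 13714 and 13876 with LPS+8-Br-cAMP, 9664 and 10014 with LPS, and 8500 and 8332 unstimulated. Other H2-Aa probe sets differed by -0.26 to 0.51 in LPS+8-Br-cAMP against LPS. Flt3, the receptor that marks the dendritic cell lineage, was near the floor, at 49.6, 36.8 and 60.0 in the same order. All 10 macrophage and monocyte markers with a probe set and all 13 granulocyte markers with one were above the floor on at least 1 array too, so the cultures held transcripts of several myeloid types.

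C3ar1 was the receptor with the largest difference in LPS+8-Br-cAMP against LPS. Its brightest probe set had a scaled signal of 232 with LPS+8-Br-cAMP, against 1436 with LPS and 1434 unstimulated. The second had 363 with LPS+8-Br-cAMP, against 1520 with LPS and 1134 unstimulated. The third had 284 with LPS+8-Br-cAMP, against 931 with LPS and 1056 unstimulated. On all 3 probe sets the LPS+8-Br-cAMP array was the lowest, while the LPS and unstimulated arrays lay close together.

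Relative to LPS alone, the C3ar1 probe sets with LPS+8-Br-cAMP were 6.18-fold, 4.18-fold and 3.28-fold lower, log2 differences of -2.63, -2.06 and -1.71 against an error of 0.48. Of the 12572 genes measured in this comparison, 0.135% were at least as low as C3ar1 by its brightest probe set. Against unstimulated cells the same probe sets differed by -2.63, -1.64 and -1.90. C3ar1 differed little in LPS against unstimulated, by 0.0019, 0.42 and -0.18, each smaller than the error of 0.45. The C3ar1 signal with 8-Br-cAMP thus lay below both other arrays on every probe set, by at least 3.12-fold.

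A lower signal in a bulk culture can come from fewer cells that make the transcript or from less of it per cell, and these cannot be told apart here. Markers of other myeloid cells also differed in LPS+8-Br-cAMP against LPS, by unlike amounts and not all downward. All 13 granulocyte markers with a probe set were lower in that comparison, with a median of -1.11, except that Mmp8, at -0.069, turned to 0.066 under spike scaling. Of the 13, 7 were at least 2-fold lower, where 5.81% of all 12572 measured genes were. The summed scaled signal of the 13 was 23992 with LPS+8-Br-cAMP, against 45265 with LPS and 43162 unstimulated. Mpo and Elane, enzymes of neutrophil granules, had the largest differences of the 13, -2.48 and -2.38 on the log2 scale, while Lcn2 of the same list differed by -0.29. Of 10 macrophage and monocyte markers, 7 were lower and 3 higher (of which Csf1r and Fcgr1 were below 0 without scaling), with a median of -0.69. Their summed signal was 42867 with LPS+8-Br-cAMP, against 38151 with LPS and 33126 unstimulated. Cd14 alone made up 20763, 10940 and 4222 of these sums in the same order. Its rise was larger than that of the sum, so the higher sum does not describe the other markers. Mertk, a macrophage receptor for apoptotic cells, differed by -1.65. The macrophage growth factor receptor Csf1r differed by 0.14, and by 0.14 and -0.28 on its other probe sets. Among 4 measured eosinophil markers 3 were at least 2-fold lower, with Epx at -1.75, Prg2 at -1.62 and Prg3 at -1.36 or more in size, a bound set by the floor. The remaining marker, Siglecf, differed by 0.064, with 56.1 against 53.7. The part of these cells in the C3ar1 difference was not tested.

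C5ar1, the other complement fragment receptor, was highest with LPS alone. Its brightest probe set had 349 with LPS+8-Br-cAMP, against 596 with LPS and 204 unstimulated. The second had 253 with LPS+8-Br-cAMP, against 658 with LPS and 218 unstimulated. Both ran in the same order, LPS above LPS+8-Br-cAMP above unstimulated.

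In LPS against unstimulated C5ar1 was 2.93-fold and 3.02-fold higher by its probe sets, log2 differences of 1.55 and 1.60 against an error of 0.45. With 8-Br-cAMP added to LPS it was 1.71-fold lower by the brightest probe set and 2.61-fold lower by the second, -0.77 and -1.38 against an error of 0.48. The probe sets therefore agreed on the direction and disagreed on whether the difference passed 2-fold. Against unstimulated cells the LPS+8-Br-cAMP array was higher by 0.78 and 0.21, and the second of these was within the error of 0.56. That direction turned without scaling of the dim array, to -0.32 and -0.88.

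Fpr2 was the receptor with the largest LPS difference among the 5. Its single probe set had 5190 with LPS+8-Br-cAMP, against 4509 with LPS and 1168 unstimulated. It was 3.86-fold higher in LPS against unstimulated, a log2 difference of 1.95 against an error of 0.45, and 2.31% of the 12283 measured genes were at least as high. In LPS+8-Br-cAMP against LPS it differed by 0.20, within the error of 0.48 and between -0.61 and 0.34 across scalings. It was 4.44-fold higher in LPS+8-Br-cAMP against unstimulated, 2.15 on the log2 scale. Neutrophils also express Fpr2. It belongs to a cluster of closely related mouse genes, and how far its probe set reads related transcripts was not tested. The probe sets of the relatives Fpr-rs3 and Fpr-rs4 were under the floor on all 3 arrays, with at most 5.13 and 30.2. The relatives Fpr1 and Fpr3 had no probe set listed for them alone, so their transcripts were not measured.

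Ltb4r1 went the other way from Fpr2. Its probe set had 150 with LPS+8-Br-cAMP, against 161 with LPS and 339 unstimulated, so both stimulated cultures lay together below the unstimulated one. It was 2.11-fold lower in LPS against unstimulated, a log2 difference of -1.07 against an error of 0.45, and 11.2% of measured genes were at least as low. The difference from LPS with 8-Br-cAMP was -0.096, within the error of 0.48, but lay between -0.91 and 0.040 across scalings, the lowest without scaling. It was 2.25-fold lower in LPS+8-Br-cAMP against unstimulated, -1.17 on the log2 scale. The LPS difference passed 2-fold by a small margin and was -0.92 under cyclic loess.

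Ptafr lay close to the floor on all 3 arrays. Its brighter probe set had 48.1 with LPS+8-Br-cAMP, against 63.7 with LPS and 50.1 unstimulated. The dimmer had 30.5 with LPS+8-Br-cAMP, under the floor, against 48.7 with LPS and 35.9 unstimulated. Both were highest with LPS, by 0.34 and 0.44 over unstimulated cells. With 8-Br-cAMP added the brighter differed from LPS by -0.40, within the error of 0.48. The dimmer differed by -0.58 or more in size, a bound set by the floor. Its brighter probe set stayed within the error in each comparison, and a change smaller than that was not detectable this close to the floor.

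**Figure D1:**
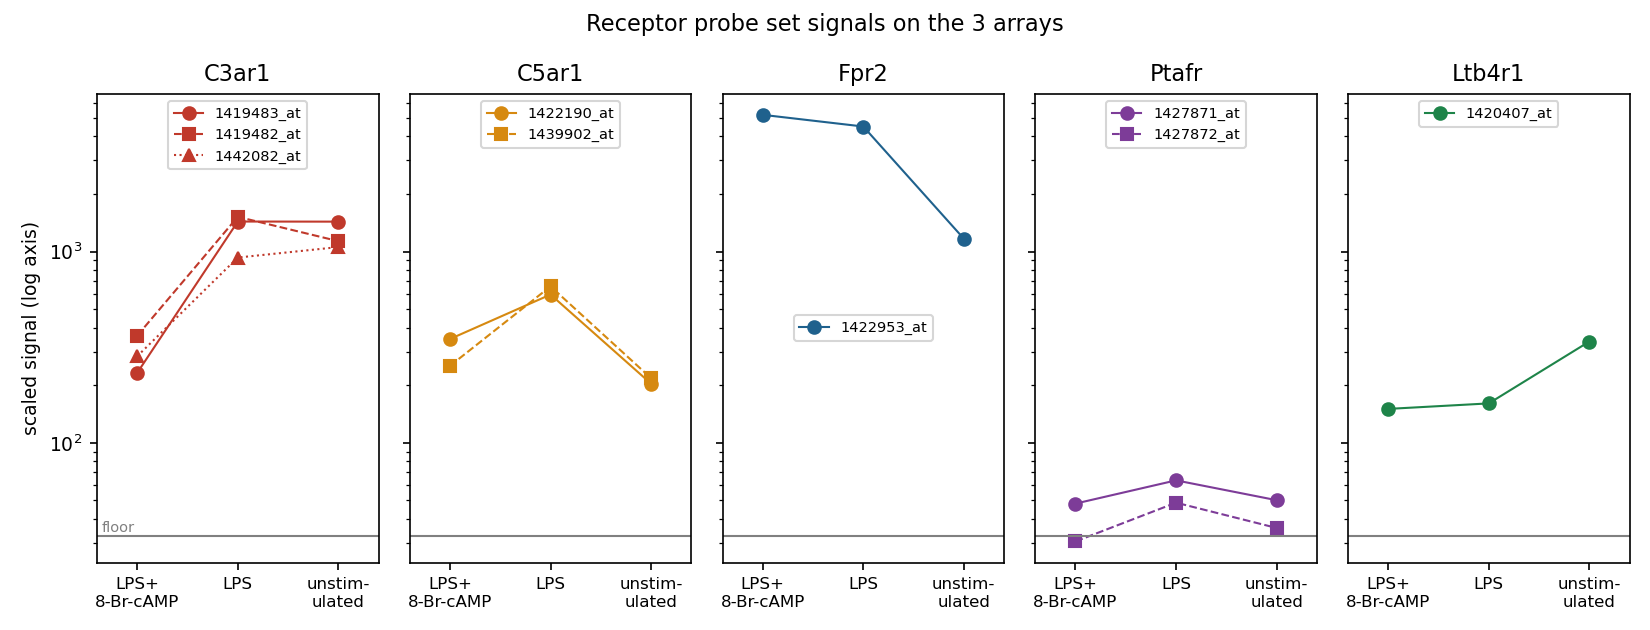
Scaled signal (log axis) of each receptor probe set on the LPS+8-Br-cAMP, LPS and unstimulated arrays, 1 array each, with lines joining the values of 1 probe set and a grey line at the floor of 32.5. The 3 C3ar1 probe sets drop on the LPS+8-Br-cAMP array alone, C5ar1 peaks with LPS, Fpr2 is high on both stimulated arrays and Ltb4r1 is low on both, and levels of different probe sets are not comparable.

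Counted by the brightest probe set, 2 of the 5 measured receptors, C5ar1 and Fpr2, were at least 2-fold higher in LPS against unstimulated, where 6.64% of all 12283 measured genes were. Ltb4r1 was at least 2-fold lower, 1 of 5, where 13.0% of all measured genes were. In LPS+8-Br-cAMP against LPS 0 of 5 were at least 2-fold higher, where 6.49% of all 12572 genes were, and C3ar1 was at least 2-fold lower, 1 of 5, where 5.81% were. Set against unstimulated cells, LPS+8-Br-cAMP had Fpr2 at least 2-fold higher, 1 of 5, where 9.36% of all 12793 genes were. C3ar1 and Ltb4r1 were at least 2-fold lower, 2 of 5, where 15.8% were. The median of the 5 was 0.34 in LPS against unstimulated, against -0.21 for all measured genes. It was -0.40 against 0.049 in LPS+8-Br-cAMP against LPS, and -0.059 against -0.12 in LPS+8-Br-cAMP against unstimulated. With 5 genes these counts and medians describe the receptors and say little of them as a group. The receptors were chosen with earlier results of these data known, so the shares of all genes are no independent yardstick for them. The comparisons share arrays, so they are not independent of each other.

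**Figure D2:**
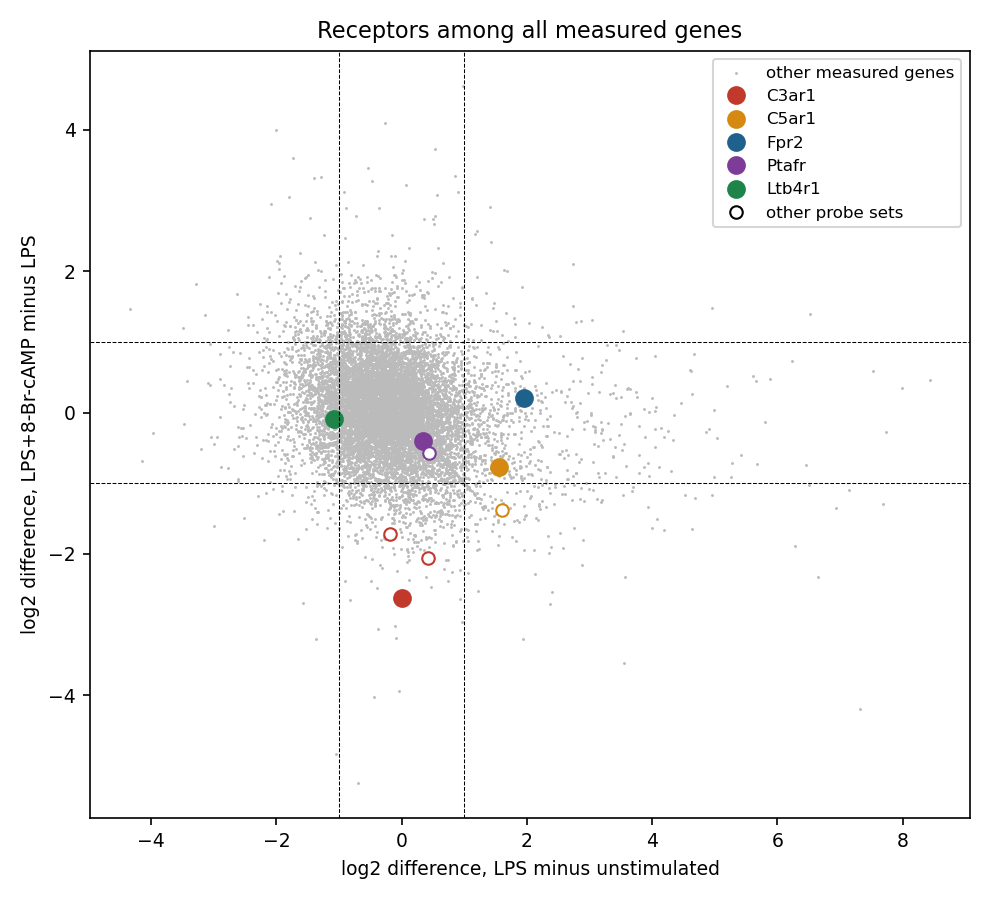
Log2 difference of LPS minus unstimulated (x axis) and of LPS+8-Br-cAMP minus LPS (y axis) for all genes measured in both (grey, brightest probe set) and for the receptors (filled, brightest probe set, and open, other probe sets), with dashed lines at 2-fold. C3ar1 lies at the low edge of the cloud on the y axis near 0 on the x axis, Fpr2 and C5ar1 lie to the right, and because both axes contain the LPS array the cloud leans by construction.

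The median of all measured genes moved with the scaling, from -0.21 to -0.51 under spike scaling in LPS against unstimulated, and from 0.049 to -0.65 without scaling in LPS+8-Br-cAMP against LPS. Set against that median, the brightest C3ar1 probe set lay at -2.79 to -2.48 in LPS+8-Br-cAMP against LPS over 6 scalings. In the same comparison the C5ar1 probe sets lay at -0.93 to -0.75 and at -1.54 to -1.29, and Fpr2 at -0.054 to 0.18. In LPS against unstimulated Fpr2 lay 1.82 to 2.16 above the median, the brightest C5ar1 probe set 1.71 to 1.76 above it, and Ltb4r1 at -0.90 to -0.82.

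**Figure D3:**
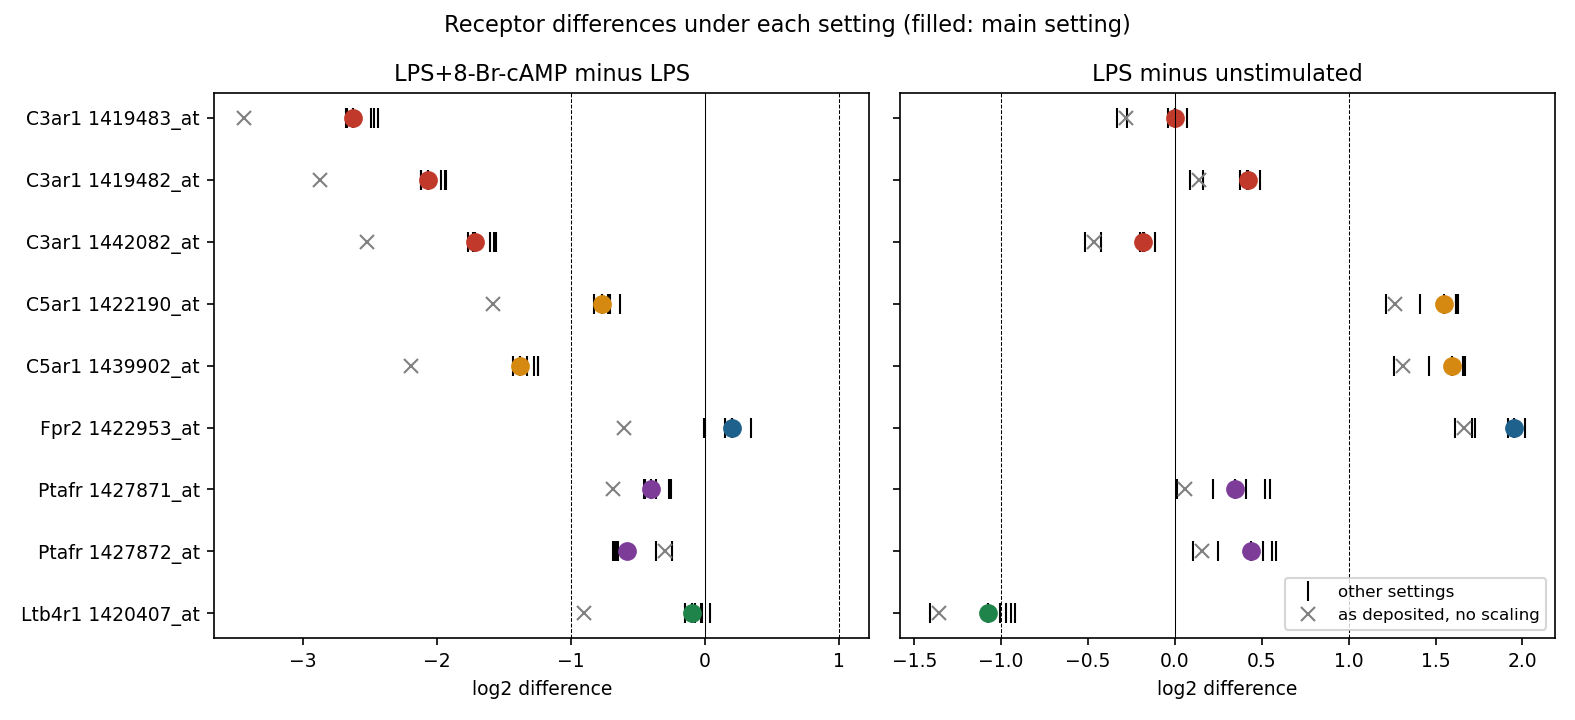
Log2 difference of each receptor probe set in LPS+8-Br-cAMP minus LPS (left) and LPS minus unstimulated (right), with filled points for the main setting, ticks for other scalings and floors and crosses for the signals as deposited, and dashed lines at 2-fold. The C3ar1 probe sets stay below -1.5 in every setting on the left, and Ltb4r1 straddles -1 on the right.

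Genes with a like course over the 3 arrays were sought by the distance between pairs of log2 differences, LPS minus unstimulated and LPS+8-Br-cAMP minus LPS, among 8804 named genes above the floor on every array. With 3 arrays many genes share any course. The nearest to C3ar1 were Elane, Dnajb4 and Pglyrp1, at distances of 0.28, 0.40 and 0.41. Elane and Pglyrp1 encode granulocyte proteins, and Elane is also among the granulocyte markers above. The nearest to Fpr2 were the matrix proteoglycan Vcan (0.083), Ntng2 (0.096) and the small GTPase Rap2c (0.11). The nearest to C5ar1 were Lnpk, Lztfl1 and Fndc3a, at 0.068 to 0.099. For Ltb4r1 they were Pdxdc1, Gadd45a and Aco1, and for Ptafr Fam174b, Camsap1 and Ppp1r14c, all within 0.025.

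The promoters of the 4 receptors that passed 2-fold are printed so that the letters behind the motif search can be read. They come from RefSeq, build GRCm38.p6, and run from 250 bases before to 50 after the annotated start, 5′ to 3′ on the gene's strand. That of C3ar1 is chr6:122856108-122856407 (minus strand), that of C5ar1 chr7:16259289-16259588 (minus), that of Fpr2 chr17:17887574-17887873 (plus) and that of Ltb4r1 chr14:55765712-55766011 (plus). Capitals mark a motif match, and a sequence without capitals held none.
C3ar1: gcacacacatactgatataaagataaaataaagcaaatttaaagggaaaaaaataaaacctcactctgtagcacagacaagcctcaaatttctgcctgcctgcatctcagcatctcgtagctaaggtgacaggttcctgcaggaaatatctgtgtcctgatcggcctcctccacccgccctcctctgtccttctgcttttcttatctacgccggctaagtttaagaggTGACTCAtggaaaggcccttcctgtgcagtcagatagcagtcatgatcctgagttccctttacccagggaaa
C5ar1: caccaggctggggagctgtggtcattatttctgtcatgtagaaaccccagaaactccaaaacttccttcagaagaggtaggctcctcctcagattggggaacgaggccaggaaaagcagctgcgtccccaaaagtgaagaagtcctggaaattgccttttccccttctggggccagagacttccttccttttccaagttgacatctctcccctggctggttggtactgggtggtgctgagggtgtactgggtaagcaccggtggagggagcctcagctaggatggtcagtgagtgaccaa
Fpr2: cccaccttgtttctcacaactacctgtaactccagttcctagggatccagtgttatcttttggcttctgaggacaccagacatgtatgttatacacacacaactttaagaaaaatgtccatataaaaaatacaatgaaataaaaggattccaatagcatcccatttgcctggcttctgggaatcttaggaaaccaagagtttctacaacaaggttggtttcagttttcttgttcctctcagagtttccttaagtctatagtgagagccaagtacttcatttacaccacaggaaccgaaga
Ltb4r1: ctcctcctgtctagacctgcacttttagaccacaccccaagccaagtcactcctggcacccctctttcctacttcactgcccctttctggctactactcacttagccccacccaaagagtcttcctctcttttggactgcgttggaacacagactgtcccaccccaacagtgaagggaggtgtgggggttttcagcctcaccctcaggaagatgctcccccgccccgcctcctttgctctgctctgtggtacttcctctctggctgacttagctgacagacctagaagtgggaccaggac

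The motifs searched on both strands were the cyclic AMP response element TGACGTCA, its shorter form TGACG, which the longer one contains, the AP-1 site TGACTCA, and the NF-kB motif without its first base, GGACTTTCC. The only match in these 4 windows was the AP-1 site of C3ar1, whose first base lies 22 bases before the start. Of the 32851 RefSeq promoters of the same length, 5.2% held the AP-1 site, 20.8% the shorter cyclic AMP element, 1.79% the longer one and 0.344% the NF-kB motif. A match of letters is a description and not evidence that a factor binds, and the absence of a match covers these windows alone.

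Of 5 listed ligands of formyl peptide receptors, 3 were at least 2-fold higher in LPS against unstimulated and 0 lower. Of all measured genes 6.64% were higher and 13.0% lower to that extent. The median of the 5 was at least 1.68, because its middle value, that of Saa1, is a bound against the floor. The acute-phase protein Saa3 had a signal of 14418 with LPS+8-Br-cAMP, against 8637 with LPS and 896 unstimulated, a LPS difference of 3.27. Its difference of LPS+8-Br-cAMP from LPS was 0.74 (-0.070 without scaling). Saa2 was at least 5.01-fold and Saa1 at least 3.20-fold higher with LPS. In LPS+8-Br-cAMP against LPS Saa1 was higher by 2.01, with 418 against 104, and by 2.31 on its second probe set, while Saa2 differed by -0.77. Saa1 and Saa2 are close copies, so their probe sets may share transcripts. Annexin A1 (Anxa1) differed by 0.30 in LPS against unstimulated and by -0.011 with 8-Br-cAMP (-0.82 without scaling), and the cathelicidin Camp, also a granulocyte marker, differed by -1.93 with 8-Br-cAMP.

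Complement genes had 6 measured members in LPS against unstimulated. Of these Cfb, a protease subunit of the alternative pathway, was at least 2-fold higher, by 3.74, and 0 were lower. The shares of all measured genes were 6.64% higher and 13.0% lower. Cd59a, which blocks the membrane attack complex, differed by 0.72, Cfp by -0.51 and Cpn1, a subunit of the enzyme that trims C3a and C5a, by at least 0.33 downward. The second probe set of Cd59a differed by at least 0.12 downward. In LPS+8-Br-cAMP against LPS 0 of 7 passed 2-fold in either direction by the brightest probe set, where 6.49% of all measured genes were higher and 5.81% lower. The median was 0.28 (-0.39 to 0.66 across scalings). Properdin (Cfp), which stabilises the alternative pathway convertase, differed by 0.67 (-0.14 without scaling), with 2390 against 1507. Cd46, a membrane cofactor for complement inactivation, was higher by at least 0.93, with 62.1 against 21.6, under the floor. The complement regulator Cr1l differed by 0.53 (-0.28 without scaling) and Cd59a by -0.31, but its second probe set was higher by at least 1.16. The gene of C5, Hc, was under the floor on all 3 arrays, and C3 had no probe set listed for it alone.

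Of 13 genes that make or break down leukotriene B4 and PAF, the phospholipase Pla2g4a was at least 2-fold higher in LPS against unstimulated, by 1.41, with 675 against 254. By the brightest probe set 0 were lower, and the shares of all measured genes were 6.64% higher and 13.0% lower. Lta4h differed by -0.47, but a dimmer probe set of it passed 2-fold, at -1.04, with 55.6 against 115. Lpcat1, an acyltransferase that can make PAF, differed by -0.93, Pafah1b1 by 0.52 and the 5-lipoxygenase Alox5 by -0.52. With 8-Br-cAMP added to LPS, Ltc4s, the leukotriene C4 synthase, was higher by 1.09, with 316 against 149. By the brightest probe set it was the 1 of 13 at least 2-fold higher, where 6.49% of all measured genes were. Cyp4f18, which inactivates leukotriene B4, differed by 0.84, Ptgr1 by -0.52 and the activating protein Alox5ap by 0.49. Without scaling Ltc4s differed by 0.28, under 2-fold, Cyp4f18 by 0.034 and Alox5ap by -0.32.

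Of the related receptors 3 were measured. Ccrl2, which presents the chemoattractant chemerin without signalling, was higher by 3.65 in LPS against unstimulated and differed by 0.33 with 8-Br-cAMP (-0.48 without scaling). Cmklr1, the signalling receptor of chemerin, was at least 3.06-fold lower in LPS+8-Br-cAMP against LPS, with 25.02, under the floor, against 99.6. It differed by -0.56 in LPS against unstimulated. Gpr33 lay near the floor and stayed within 0.037 in both comparisons.

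Downstream of the receptors, Gi signalling genes went both ways. In LPS against unstimulated 3 of 16 were at least 2-fold higher, where 6.64% of all measured genes were. The 3 were Pik3r5 (1.46) and Pik3r6 (1.27), the regulatory subunits of PI3-kinase gamma, and the phospholipase Plcb3 (1.29). The 2 lower genes, where 13.0% of all were lower, were the catalytic subunit Pik3cg (-1.30, and -0.72 on its second probe set) and the G protein subunit Gng2 (-1.04). In LPS+8-Br-cAMP against LPS 1 of 16 was higher and 0 lower, where 6.49% and 5.81% of all were. The higher gene was Pik3cg, by 1.15 (0.34 without scaling), but its second probe set gave -0.92. Gng2 differed by 0.22, but a dimmer probe set of it differed by -1.15 or more in size, with 31.9, under the floor, against 72.4. Plcb3 differed by -0.68, Prex1 by -0.52 and Gna15 by -0.46.

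Of 11 measured genes that switch such receptors off, 4 were at least 2-fold lower and 1 was higher in LPS against unstimulated, where 13.0% and 6.64% of all measured genes were. The arrestin Arrb1 had 87.0 with LPS+8-Br-cAMP, against 112 with LPS and 627 unstimulated, a LPS difference of -2.49. Rgs2, a regulator that speeds G protein inactivation, differed by -3.28 and the receptor kinase Grk6 by -1.32. Rgs19 differed by -1.30 and Rgs1 by 1.07. With 8-Br-cAMP added to LPS, Rgs18 differed by -1.93, with 56.1 against 213, and by at least 2.81 in the same direction on its second probe set, which was under the floor with LPS+8-Br-cAMP. Grk3 differed by -1.36, with 169 against 434, and Rgs2 was higher by 1.82. A dim probe set of Rgs2 went the other way, by -0.94, with 33.0 against 63.2, and differed by -0.23 in LPS against unstimulated. Rgs1 differed by 0.94. The count in that comparison was 1 of 11 higher and 2 lower, where 6.49% and 5.81% of all measured genes were. Of the 4 phagocyte oxidase genes measured, which encode the superoxide-producing complex that these receptors activate, 0 passed 2-fold in either comparison by the brightest probe set. With 8-Br-cAMP added to LPS, Ncf1 differed by -0.78, and by -0.90 and -1.25 on its other probe sets, the last of them past 2-fold. Cybb differed by 0.45, Cyba by 0.35 and Ncf4 by 0.16, and without scaling these turned to -0.36, -0.46 and -0.65. In LPS against unstimulated the 4 differed by -0.042 to 0.46.

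**Figure D4:**
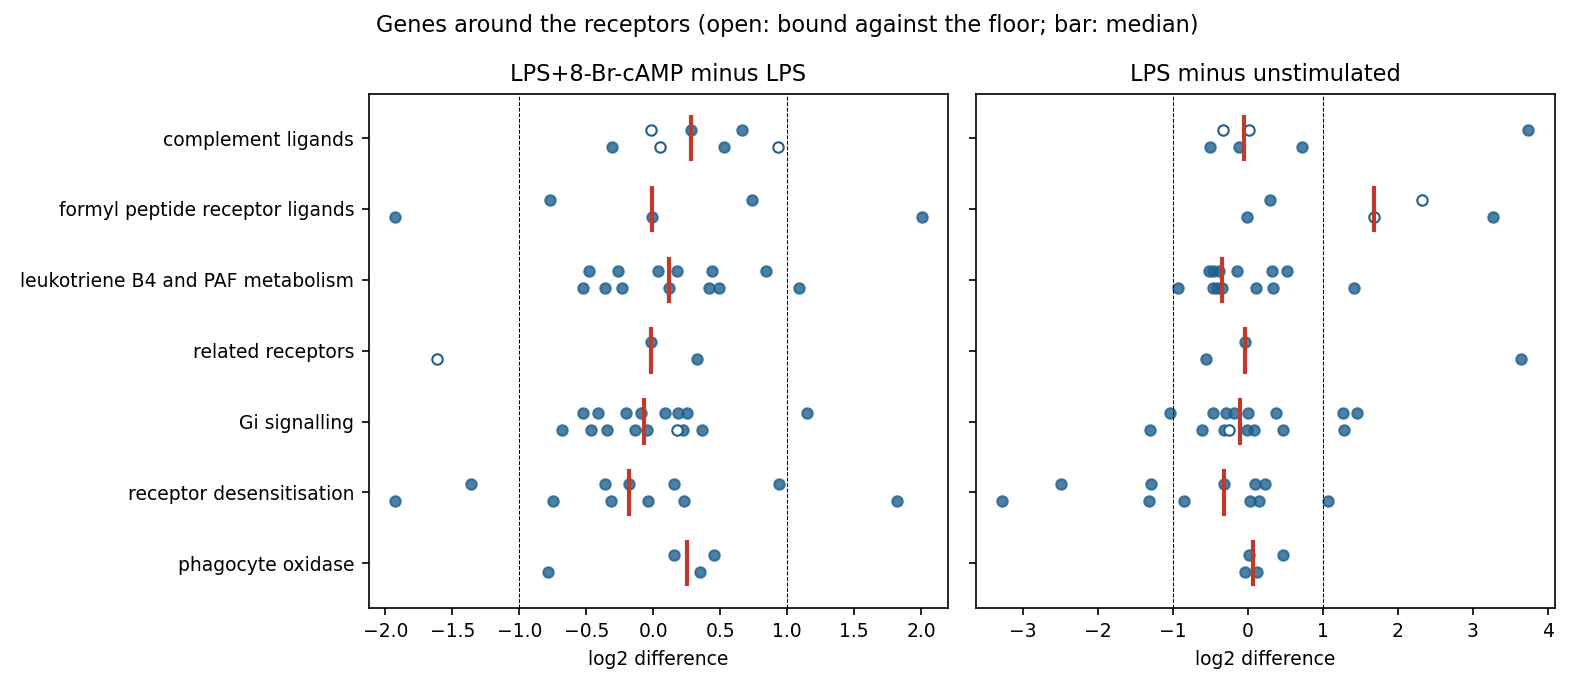
Log2 difference of each measured gene in the lists around the receptors, LPS+8-Br-cAMP minus LPS (left) and LPS minus unstimulated (right), 1 point per gene, open where the value is a bound against the floor, with a red bar at the list's median and dashed lines at 2-fold. The formyl peptide receptor ligands have the highest median with LPS, at least 1.68 because the middle gene is a bound, and no list has a median past 2-fold on the left.

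Other marker lists gave the following in LPS+8-Br-cAMP against LPS. For scale, 6.49% of all 12572 genes passed 2-fold upward in that comparison, and 5.81% passed it downward. With so few markers in each list, the counts below describe single genes and say little of a cell type. Dendritic cell markers had a median of 0.29 (-0.65 to 0.34 across scalings), with 2 of 12 at least 2-fold higher, Ccr7 2.83-fold and Irf4 2.66-fold. Without scaling their log2 differences were 0.69 and 0.60, under 2-fold, and the second probe set of Irf4 differed by 0.28. B cell markers had 2 of 6 at least 2-fold lower, the antibody genes Jchain, at least 16.2-fold, and Igha, which differed by -3.95, and 0 at least 2-fold higher. The 2 B cell markers above 0 were Pax5, by at least 0.67, with 51.9 against 6.49, under the floor, and Cd79b, by 0.10. Mast cell and basophil markers had 2 of 6 at least 2-fold lower, Cpa3, at least 3.93-fold, and Mcpt8, 2.07-fold, and 0 at least 2-fold higher. Of these 6 markers 3 were above 0, Kit at 0.68, Gata2 at 0.20 and Fcer1a at 0.10. T cell markers had 1 measured gene, Cd8a, which was under the floor with LPS+8-Br-cAMP. NK cell markers had 1 of 3 at least 2-fold lower, Gzmb, at least 2.50-fold, and 0 at least 2-fold higher, while Klrd1 differed by 0.82 and Ncr1 by at least 0.50. In LPS against unstimulated the medians were 0.16 for dendritic cells, -0.054 for macrophages and monocytes, -0.0057 for granulocytes and 0.11 for eosinophils. They were -0.13 for mast cells and basophils and -0.80 for B cells. For T cells the median was -0.22 over 2 measured genes, of which Cd3d was a bound against the floor. For NK cells it was -0.38 over 3 measured genes, and this middle value, that of Ncr1, was a bound too. Single markers lay far from these medians on both sides, such as Ccr2 at -2.88, Fcgr1 at 1.49, Cd14 at 1.37 and Mmp9 at -1.10. The part of these cells in the LPS differences of C5ar1, Fpr2 and Ltb4r1 was not tested.

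**Figure D5:**
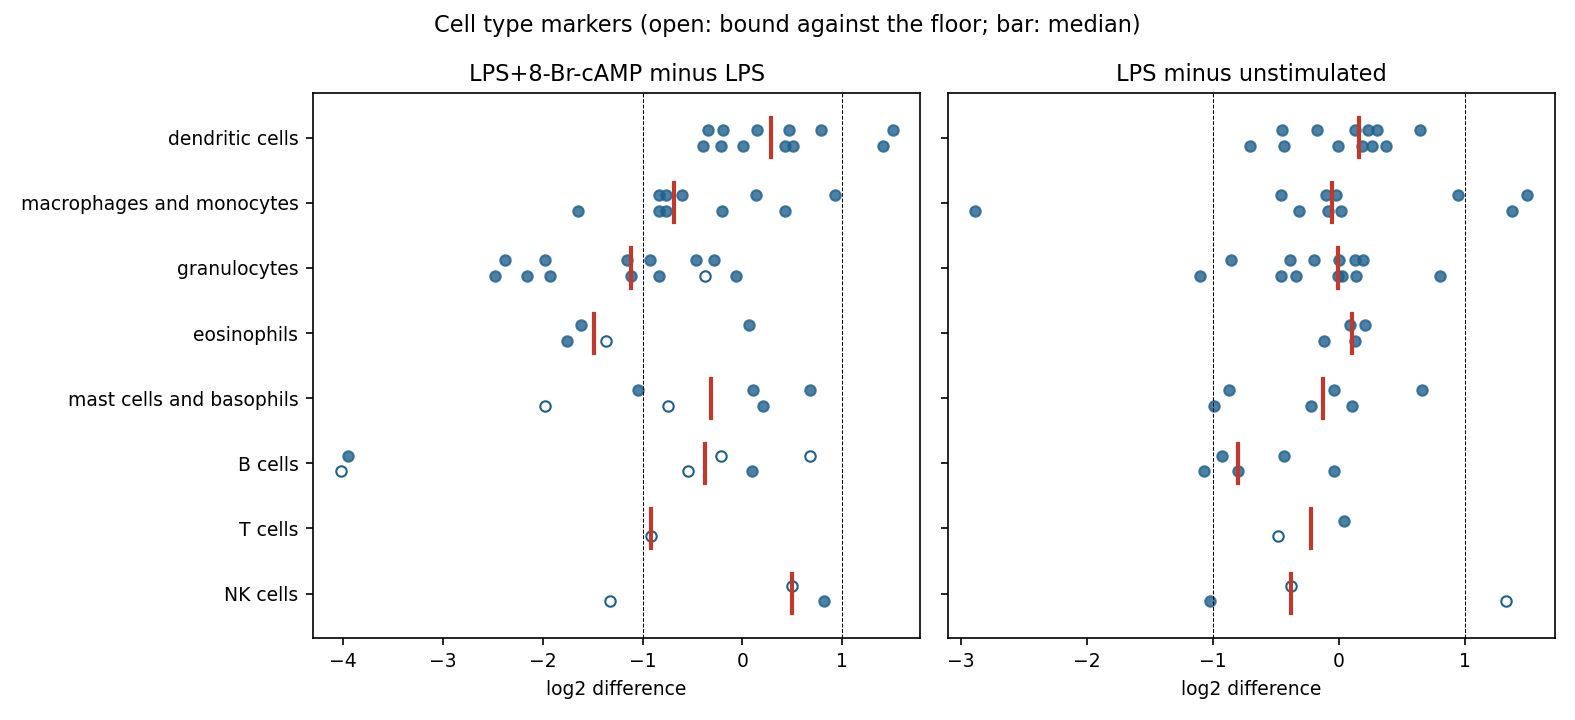
Log2 difference of each measured cell type marker, LPS+8-Br-cAMP minus LPS (left) and LPS minus unstimulated (right), 1 point per gene, open where the value is a bound against the floor, with a red bar at the list's median and dashed lines at 2-fold. All 13 granulocyte markers lie below 0 on the left, with a median of -1.11 (Mmp8, at -0.069, turned to 0.066 under spike scaling), and spread around 0 on the right.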

How the data were processed

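The deposited table held 1 linear signal intensity per probe set and array, for which the submitters' processing notes name MAS5. Its version, target value and settings are not stated there. RNA labelling and hybridisation followed the Affymetrix one-cycle protocol, per the labels' protocols. Of 45101 probe sets, 64 were controls and were left out. GEO's platform annotation gave 1 gene to 34945 and several to 932. Each array was multiplied by a factor (1.63 for LPS+8-Br-cAMP, 0.929 for LPS, 0.763 for unstimulated) that brought its mean, trimmed by 2% at each end, to the average of the 3. The floor was the highest scaled array median. The probe set with the highest mean scaled signal stood for its gene. Differences were log2 differences, counted at 2-fold. No test was possible with 1 array per condition, which limits the precision.

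The receptors and all gene lists were chosen with earlier results of these data known. Genes were named by a rule: every receptor, up to 4 genes of each list with the largest differences in each of LPS against unstimulated and LPS+8-Br-cAMP against LPS, and the 3 nearest genes of each receptor above the floor on all arrays. Xist and Eif2s3y were added as markers of sex. Cd74, H2-Aa, Flt3, Csf1r, Fcgr1, Mmp8, Gng2, Lta4h, Hc, C3, Fpr-rs3 and Fpr-rs4 were named after their values were seen. Fpr3, without a probe set of its own, was also named outside the rule. For the marker lists only some of the genes this rule allows are named. The alternatives tried were other scalings (quantiles, medians, cyclic loess with limma 3.58.1, spikes, none), other floors, a pseudocount, averaging a gene's probe sets, keeping those with a plain _at name, and other thresholds. The steps were tested on simulated data. Python 3.11.15 was used.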

Additional observations from a re-analysis of the deposited data

How the results depend on the processing

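No paired analysis was possible because each condition had 1 array, and for the same reason no replicate could be left out. The counts of receptors past 2-fold moved as follows. In LPS against unstimulated the count lower (Ltb4r1, 1) became 0 under quantile normalization, cyclic loess, a pseudocount in place of the floor and a threshold of 3-fold, and the count higher (2) became 1 at 3-fold. In LPS+8-Br-cAMP against LPS the count lower (C3ar1, 1) became 2 with C5ar1 as deposited with no scaling, with the mean over probe sets and at 1.5-fold. In LPS+8-Br-cAMP against unstimulated the count lower (2) became 1 under cyclic loess and at 3-fold, and the count higher (1) became 2 at 1.5-fold. The other 61 recomputed counts were within 1.5 times the main count. No receptor difference past 2-fold changed sign under the 8 other scalings and floors. The brightest C3ar1 probe set ranged from -3.44 to -2.44 in LPS+8-Br-cAMP against LPS, and Fpr2 from 1.61 to 2.02 in LPS against unstimulated.

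Over all genes the share of higher ones among those past 2-fold was 33.8% in LPS against unstimulated, 45.7% under cyclic loess and 15.7% under spike scaling. It was 52.8% in LPS+8-Br-cAMP against LPS, 66.4% under spike scaling and 3.13% without scaling, and 37.3%, 24.5% and 4.46% in LPS+8-Br-cAMP against unstimulated. Signal near the floor limits Ptafr most.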
